A study of Homo sapiens with 9 samples.

Results

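Of the 9169 anti-HA peaks that A549 cells gave on chromosomes 1 to 22 and X, 221 overlapped no H3K4me3 peak by even 1 bp. They were 69 of the 6788 peaks from cells with HA-tagged BAZ2B (1.02%, exact 95% interval 0.79 to 1.28%) and 152 of the 2381 peaks from untagged wild-type (WT) cells (6.38%, interval 5.44 to 7.44%). These peaks were chosen by their positions relative to the called H3K4me3 peaks, so their shares describe the lists and are not a finding. All 3 deposited lists together hold 27108 peaks.

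A549 is a human lung adenocarcinoma line. The first group had an HA epitope inserted at the 5′ end of the endogenous BAZ2B gene and was profiled with an anti-HA antibody. WT cells, which carry no tag, were profiled with the anti-HA antibody too. H3K4me3 was profiled in the tagged line alone, so a WT peak was judged against the H3K4me3 of the other line. Each group had 3 replicates, 9 libraries in all, which the labels do not describe as separate cultures, and the labels do not say whether the tagged line is 1 clone. A chromatin spike-in from Drosophila was added, and an siRNA transfection in the protocol is assigned to no library.

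BAZ2B, through its bromodomain, binds acetylated histones, and it partners with the ISWI chromatin remodelers, enzymes that slide nucleosomes. H3K4me3 is the histone mark of active and CpG-rich promoters, while enhancers and other distal elements usually carry little of it. In CUT&Tag an antibody brings a transposase to its target, and the fragments cut there are sequenced. Untagged cells hold no HA epitope, so their anti-HA peaks show the signal that the assay gives without its target.

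Each group has 1 deposited list, so no test between groups was possible and no p-value is given. A peak had to be present in at least 2 replicates, and its values come from 1 of them. A peak outside H3K4me3 is one with no listed H3K4me3 peak, which does not show that the mark was absent there. The fold enrichment and −log10 p of each peak together gave a whole-number summit pileup, the count of tags (reads or read pairs, as the authors' peak caller counted them) stacked at the summit, for 27108 of 27108 peaks. They also gave the local background, stated here as tags per 10 kb. This count may include the tags of the peak itself, which was not tested. Background and pileup are therefore not read as independent measures. The lowest background was 8.49 tags per 10 kb in the HA-BAZ2B list and 15.6 tags per 10 kb in the WT list, so the WT library behind the list was about 1.84 times as deep if both were called with the same genome size. Pileups are not scaled between the lists, and their intervals cover counting error only.

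The 69 HA-BAZ2B peaks outside H3K4me3 were shallow and short. Their median summit pileup was 5 tags (range 3 to 55, 95% interval of the median 5 to 6), against 51 tags (50 to 52) at the 6719 HA-BAZ2B peaks on H3K4me3. A pileup under 10 tags was found at 66 of 69 of them (95.7%, interval 87.8 to 99.1%), whereas 8.04% of all HA-BAZ2B peaks had so few. Their median width was 313 bp (292 to 351), against 1226 bp (1212 to 1243) on H3K4me3. The shortest width in the list, 292 bp, was held by 27 of 69 (39.1%, interval 27.6 to 51.6%), beside 2.37% of the whole list. Their recovered background was low too, with a median of 9.0 tags per 10 kb, against 163 tags per 10 kb on H3K4me3. The background was at the lowest value of the list for 28 of 69 (40.6%), against 1.68% of those on H3K4me3.

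The enrichment scores followed these small counts. The median fold enrichment was 4.81 (range 3.10 to 6.97, interval of the median 4.79 to 4.97), against 8.20 (8.11 to 8.29) on H3K4me3, and none of the 69 reached a fold of 7. The median −log10 q was 4.19, against 28.7 on H3K4me3. The 69 peaks had only 36 different fold values, since few tags over the same background can give few ratios. A pileup of 5 tags over the lowest background gave 4.81 at 16 of them, and 4 tags over it gave 4.01 at 7. By count, 13 of the 69 had a pileup of 3 to 4 tags, 22 had 5 tags and 31 had 6 to 9 tags. The other 3 stood at 12, 25 and 55 tags. The exact Poisson interval of a pileup of 5 runs from 1.62 to 11.7 tags, so most of these peaks do not differ from each other beyond counting error.

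**Figure D1:**
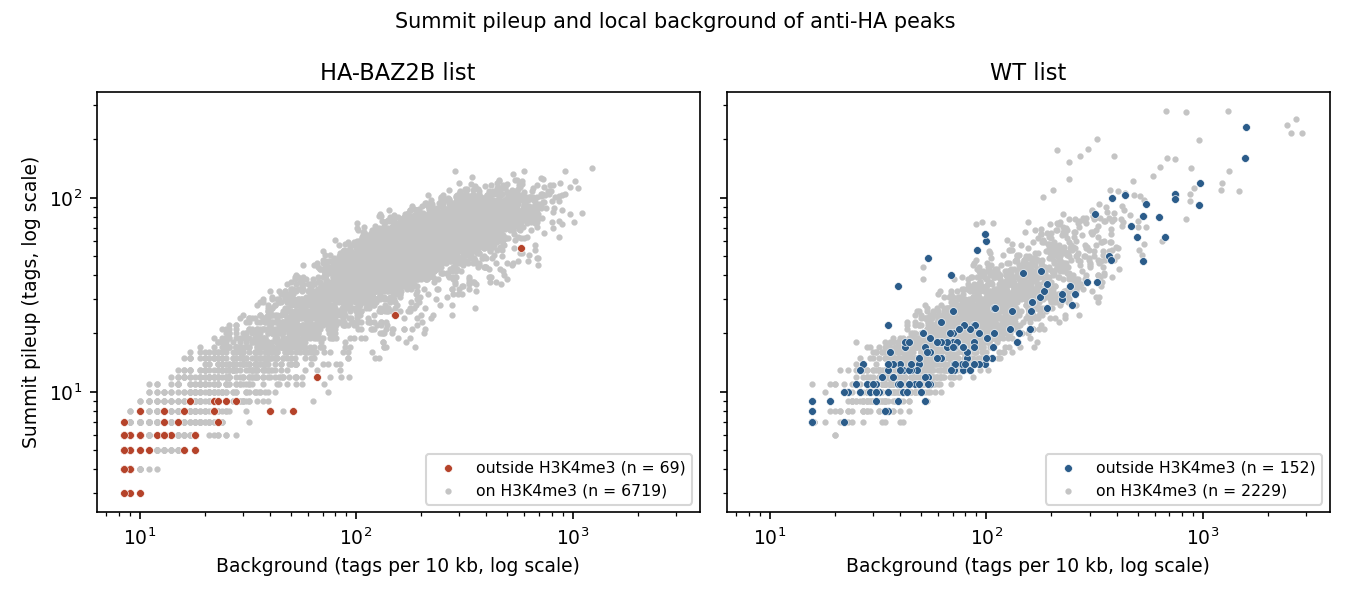
Each point is 1 anti-HA peak, by its background in tags per 10 kb (x, log scale) and its summit pileup in tags (y, log scale), for the HA-BAZ2B list (left) and the WT list (right). Coloured points lie outside H3K4me3 and grey points on it. The HA-BAZ2B points outside H3K4me3 sit in the lower left corner apart from 3, while the WT points outside it spread over most of the range of the list.

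The 152 WT peaks outside H3K4me3 were closer to the rest of their own list. Their median summit pileup was 17 tags (range 7 to 231, interval of the median 15 to 18), against 23 tags (22 to 24) at the 2229 WT peaks on H3K4me3. A pileup under 10 tags was found at 11 of 152 (7.24%, interval 3.67 to 12.6%), beside 3.61% of the whole WT list. Their median width was 535 bp (470 to 585), against 650 bp (636 to 665) on H3K4me3. Only 8 of 152 (5.26%) had the shortest width of the list, 299 bp, beside 2.56% of all WT peaks. The median background was 70 tags per 10 kb, against 85.0 tags per 10 kb on H3K4me3. Their median fold was 5.54 (5.18 to 5.97), against 6.46 (6.39 to 6.56) on H3K4me3. A fold of at least 7 was found at 25 of 152. The upper quartile of the fold was 6.59 outside H3K4me3 and 7.65 on it, so such folds were more common on H3K4me3.

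The share of peaks outside H3K4me3 varied with summit pileup in both lists, and differently in each. In the HA-BAZ2B list it was 35 of 197 peaks (17.8%, interval 12.7 to 23.8%) at 3 to 5 tags and 31 of 349 (8.88%, 6.12 to 12.4%) at 6 to 9 tags. It was 1 of 276 (0.36%) at 10 to 14 tags. Among 3506 HA-BAZ2B peaks with at least 50 tags, 1 lay outside (0.029%, interval 0.00072 to 0.16%). In the WT list 11 of 86 peaks lay outside at 6 to 9 tags (12.8%, 6.56 to 21.7%) and 50 of 407 at 10 to 14 tags (12.3%, 9.26 to 15.9%). The WT share was lowest at 30 to 49 tags, 16 of 498 (3.21%, 1.85 to 5.17%), and stood at 19 of 218 (8.72%, 5.33 to 13.3%) at 50 tags or more. At 6 to 9 tags the intervals of both lists overlapped, and in each class from 10 tags up they did not. A tag count stands for a different relative height in libraries of different depth.

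**Figure D2:**
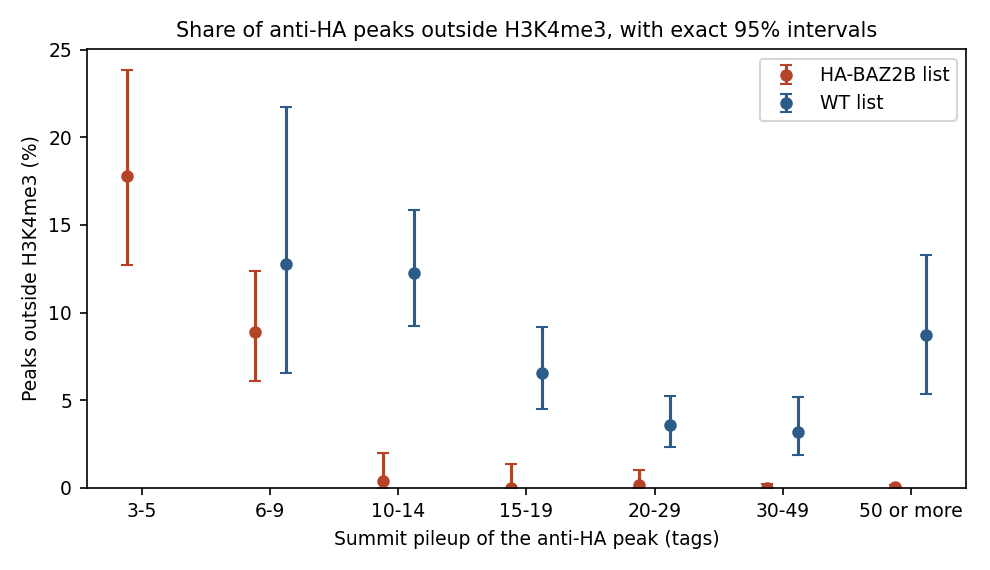
Share of anti-HA peaks outside H3K4me3 (y, in %) by class of summit pileup in tags (x), for the HA-BAZ2B list and the WT list, with exact 95% binomial intervals as bars. The HA-BAZ2B share is 17.8% at 3 to 5 tags and at most 0.36% from 10 tags up, while the WT share stays between 3.21% and 12.8%.

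The share varied with width as well, and fell further in the HA-BAZ2B list. Of HA-BAZ2B peaks under 400 bp, 56 of 475 (11.8%, interval 9.03 to 15.0%) lay outside H3K4me3, and of those of 1200 bp or more, 0 of 3505 did, which allows a share of up to 0.105%. Of WT peaks under 400 bp, 39 of 405 (9.63%, 6.94 to 12.9%) lay outside, and of those of 1200 bp or more, 5 of 108 did (4.63%, 1.52 to 10.5%).

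The 10 highest folds among the HA-BAZ2B peaks outside H3K4me3 ended in a tie of 3 peaks, and the 12 peaks down to that tie all had 6 to 9 tags. Their positions are given in build hg19. The highest, at 10p15.1 (chr10:6443608-6443941), had 8 tags over a background of 10.0 tags per 10 kb and a fold of 6.97, and it ranked 4653 of the 6788 HA-BAZ2B peaks by fold. The next, at 8q24.21 (chr8:128822143-128822459), had 9 tags and a fold of 6.68. That band holds the MYC oncogene and the long noncoding RNA gene PVT1. Here and below, a gene named with a band only places the band, and no peak was assigned to a gene. The peak at 19p13.11 (chr19:18490984-18491340) had 8 tags and a fold of 6.52, and the band holds GDF15, a stress-induced cytokine gene. The peak at 3p24.3 (chr3:17746286-17746590) had 7 tags and a fold of 6.41.

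Chromosome 17 gave 4 of these 12, which was noticed after the ranking was seen. It gave 6 of all 69 HA-BAZ2B peaks outside H3K4me3 (8.7%, interval 3.26 to 17.97%), against 7.68% of the whole list. The 69 therefore show no excess on this chromosome. At 17q23.1 (chr17:57906424-57906717), the band of VMP1 and of the microRNA gene MIR21, a peak had 8 tags and a fold of 6.13. At 17q24.3 (chr17:70610034-70610325), the band of the transcription factor gene SOX9, a peak had 9 tags and a fold of 6.09. The peaks at 17q25.1 (chr17:74442810-74443156) and 17q25.3 (chr17:79068622-79068916) had 9 tags each and folds of 5.98 and 5.78. The peak at 15q21.3 had 7 tags and a fold of 5.80. The 3 tied peaks, at 1p22.3 (chr1:85763706-85764002), 2p25.1 (chr2:9521114-9521492) and 11q22.2, had 6 tags and a fold of 5.61 each. Of the 12, those at 15q21.3 and 11q22.2 were also WT peaks and are described with the shared sites. The widest HA-BAZ2B peaks outside H3K4me3 were 895 bp at 16p11.2 (chr16:31153197-31154091), 763 bp at 20q12 and 612 bp at 20p13. Their pileups were 9, 6 and 12 tags.

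The deepest HA-BAZ2B peak outside H3K4me3 was also the one nearest to it. It lay at 16q24.3 (chr16:89988439-89988801), 22 bp from an H3K4me3 peak, with 55 tags (Poisson interval 41.4 to 71.6) over a background of 580 tags per 10 kb and a fold of 3.12. The peak with 25 tags, at 2q21.1 (chr2:131094829-131095151), was chosen for mention after its value was seen. It had a background of 151 tags per 10 kb, a fold of 4.81 and a gap of 4.20 kb to H3K4me3. The one with the lowest −log10 q, 1.36, lay at 17q21.2 with 3 tags. The 3 peaks with at least 10 tags all stood within 10 kb of H3K4me3, on backgrounds of 66.0 to 580 tags per 10 kb.

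The WT peaks outside H3K4me3 with the highest folds were of another kind, with both many tags and high enrichment. At 13q33.3 (chr13:110076336-110076802) the WT list had 49 tags (interval 36.3 to 64.8) over 54.0 tags per 10 kb and a fold of 19.1, which ranked 4 of all 2381 WT peaks. At 9q21.11 (chr9:69710736-69711331) it had 65 tags and a fold of 16.7, and at 1p22.2 (chr1:91852727-91853142) 35 tags and a fold of 16.6. A pair at 9q13 had 60 tags and a fold of 15.3 (chr9:67320356-67320987) and 54 tags and a fold of 14.8 (chr9:66970976-66971474). All of these ranked within the top 18 of the WT list, in contrast to the HA-BAZ2B peaks above.

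The next in order were 2q12.3 (chr2:109815786-109816301) with 40 tags and a fold of 13.4, and 2p11.1 (chr2:92269210-92269742) with 22 tags and a fold of 11.2. The last 3 of the 10 were 3q29 (chr3:197900059-197900516) with a fold of 8.73, 14q22.1 (chr14:54080375-54080796) with 8.42 and 7q36.3 (chr7:155744292-155744897) with 8.41, with pileups of 26, 18 and 23 tags. Of these 10 WT peaks, 1 overlapped an HA-BAZ2B peak, at 7q36.3. The other 9 lay between 113 kb and 3277 kb from the nearest HA-BAZ2B peak. The WT peak with the lowest −log10 q, 2.35, was at 14q13.2 (chr14:35854648-35855089) with 9 tags.

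The sites in both lists were few. Of the 69 HA-BAZ2B peaks outside H3K4me3, 12 overlapped a WT peak (17.4%, interval 9.32 to 28.4%), beside 28.7% of all HA-BAZ2B peaks. Each of the 12 WT peaks was itself outside H3K4me3, so the 221 peaks mark 57 sites of the HA-BAZ2B list alone, 140 of the WT list alone and 12 of both. The 12 WT peaks were 7.89% of the 152 WT peaks outside H3K4me3 (interval 4.15 to 13.4%). Of all WT peaks, 81.2% overlapped an HA-BAZ2B peak. The share for WT peaks on H3K4me3 was 86.2% (84.7 to 87.6%). Only 69 of the 6788 HA-BAZ2B peaks lay outside H3K4me3, so few could overlap a WT peak there. The low share of 7.89% therefore follows largely from the criterion and is not a finding.

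At all 12 shared sites the summit pileup was higher in the WT list. The median was 5 tags in the HA-BAZ2B list (interval 4 to 6) and 18.5 tags in the WT list (13 to 21). This direction was partly set by the selection. No WT peak outside H3K4me3 had under 7 tags, whereas 66 of the 69 HA-BAZ2B peaks there had under 10. Pairs on H3K4me3, where HA-BAZ2B peaks were mostly deeper, ran the other way. Over 1934 such pairs the median was 56 tags in the HA-BAZ2B list and 24 tags in the WT list, and the WT pileup was the higher one in 22.1% of pairs (20.2 to 24.0%). Dividing each pileup by the lowest background of its own list, as a rough allowance for depth, left the WT value higher at 11 of 12 sites outside H3K4me3 (91.7%, interval 61.5 to 99.8%). The medians were then 20.2 times the lowest background in the HA-BAZ2B list and 39.7 times in the WT list. On H3K4me3 the WT value was higher in 12.8% of pairs (11.4 to 14.4%). The WT peak was the wider one at 11 of 12 sites, with median widths of 292 bp in the HA-BAZ2B list and 595.5 bp in the WT list, and in 15.4% of pairs on H3K4me3. The WT fold was higher at 9 of 12 sites and in 32.7% of pairs on H3K4me3. Over the 12 sites the median background was 8.74 tags per 10 kb in the HA-BAZ2B list and 64 in the WT list.

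The largest ratios of WT to HA-BAZ2B tags were at 17q21.2 and 3p25.1, and the largest difference in tags was at 20p13. At 3p25.1 (chr3:14494419-14494710) the HA-BAZ2B peak had 3 tags (interval 0.62 to 8.77) and the WT peak (chr3:14494034-14494795) had 20 tags (12.2 to 30.9). At 17q21.2 (chr17:39704306-39704597), the band of the type I keratin gene cluster, there were 3 tags in the HA-BAZ2B list and 21 tags (13.0 to 32.1) in the WT list (chr17:39703915-39704595). At 7q36.3 (chr7:155744248-155744539) there were 5 tags in the HA-BAZ2B list and 23 tags in the WT list. At 20p13 (chr20:3788115-3788726) there were 12 tags (6.20 to 21.0) in the HA-BAZ2B list and 37 tags (26.1 to 51.0) in the WT list (chr20:3787972-3788851). At these 4 sites the 2 Poisson intervals of raw tags did not overlap. These intervals are not scaled for depth. The WT library was about 1.84 times as deep by its lowest background, if both lists were called with the same genome size. The separation of the intervals therefore does not show a difference in relative height.

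The other 8 sites had lower or closer counts. At 11q22.2 (chr11:102470522-102470873), the band of the matrix metalloproteinase gene cluster, the HA-BAZ2B list had 6 tags and the WT list (chr11:102470262-102470889) had 20 tags. At 20q12 (chr20:39631655-39632417) there were 6 tags in the HA-BAZ2B list and 21 tags in the WT list (chr20:39631880-39632462), and this was the only one of the 12 where the HA-BAZ2B peak was the wider, at 763 bp against 583 bp. At 19q13.32 (chr19:47950422-47950873) there were 6 and at 5q13.2 (chr5:73092262-73092553) 5 tags in the HA-BAZ2B list, against 17 tags (chr19:47950542-47951126) and 16 tags (chr5:73092089-73092888) in the WT list. At 1q32.3 (chr1:211908764-211909124) 5 tags stood against 17 tags in the WT list (chr1:211908831-211909201), and at 1p36.23 (chr1:8772454-8772745) 4 tags stood against 13 tags (chr1:8772399-8772941). At 2p22.1 (chr2:38912367-38912658) the HA-BAZ2B list had 4 tags and the WT list (chr2:38912344-38912682) had 9 tags. The closest pair was at 15q21.3 (chr15:56189741-56190032), with 7 tags in the HA-BAZ2B list and 12 tags in the WT list (chr15:56189326-56189889). It was the only site where the pileup over the lowest background was higher in the HA-BAZ2B list, 28.2 against 25.8.

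**Figure D3:**
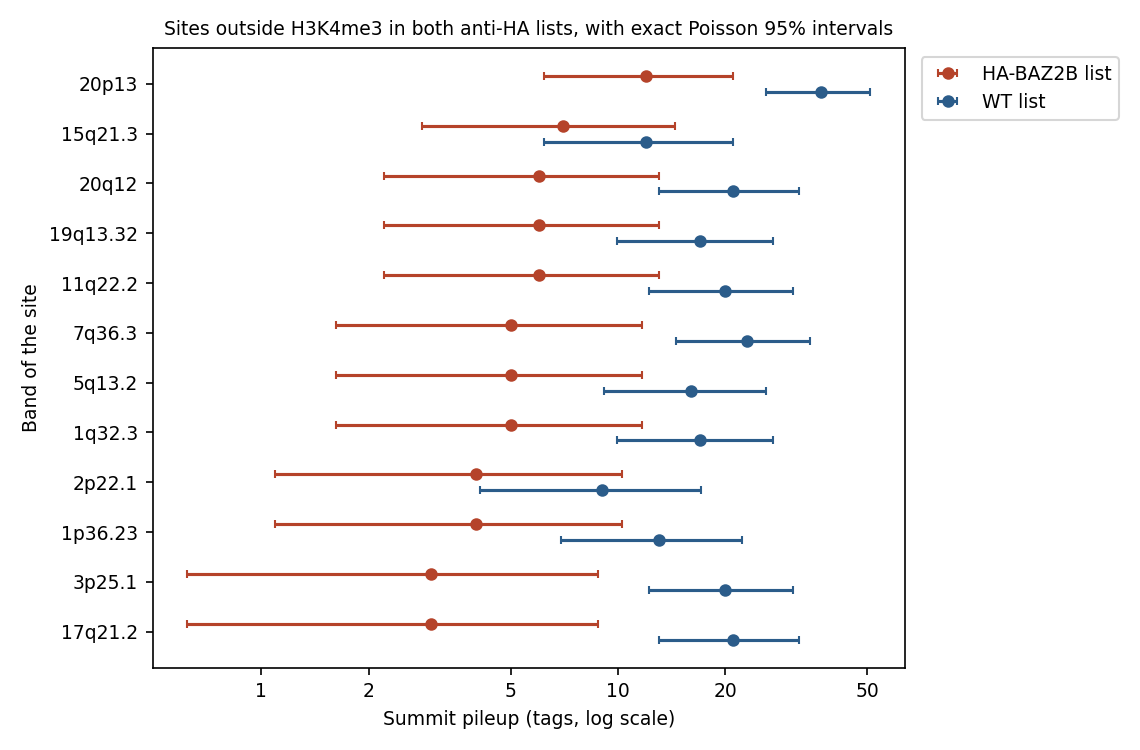
Summit pileup in tags (x, log scale) at the 12 sites outside H3K4me3 that are in both anti-HA lists, named by cytogenetic band (y), for the HA-BAZ2B list and the WT list. Bars are exact Poisson 95% intervals of raw tags, which are not scaled for depth. The WT point lies to the right of the HA-BAZ2B point at each site.

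The distance from H3K4me3 varied widely. For the HA-BAZ2B list the gap to the nearest H3K4me3 peak had a median of 19.8 kb (interval 11.9 to 25.9, range 0.022 to 272 kb), and for the WT list 29.7 kb (21.5 to 44.4, range 0.033 to 3570 kb). A gap over 10 kb was found at 48 of 69 in the HA-BAZ2B list (69.6%, 57.3 to 80.1%) and at 116 of 152 in the WT list (76.3%, 68.7 to 82.8%), and these intervals overlap. The HA-BAZ2B share depended on the criterion: it was 45.3% (35.6 to 55.2%) of 106 peaks when an overlap had to cover at least 50% of the anti-HA peak, and 0% of the 3 peaks with at least 10 tags. Gaps of 100 kb or more were found at 10 of 69 (14.5%, 7.17 to 25%) in the HA-BAZ2B list and 42 of 152 (27.6%, 20.7 to 35.5%) in the WT list, again with overlapping intervals. The farthest HA-BAZ2B peaks were at 1p36.12 (chr1:20537921-20538212, 272 kb, 4 tags), 6p22.3 (chr6:21885874-21886169, 221 kb, 7 tags) and 8q24.3 (chr8:141801136-141801427, 155 kb, 4 tags). The farthest WT peaks were at 11p11.12 (chr11:51582632-51583066, 3570 kb, 50 tags), 4p15.1 (chr4:34183041-34183794, 839 kb, 14 tags) and 8q11.21 (chr8:50968844-50969477, 654 kb, 11 tags).

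**Figure D4:**
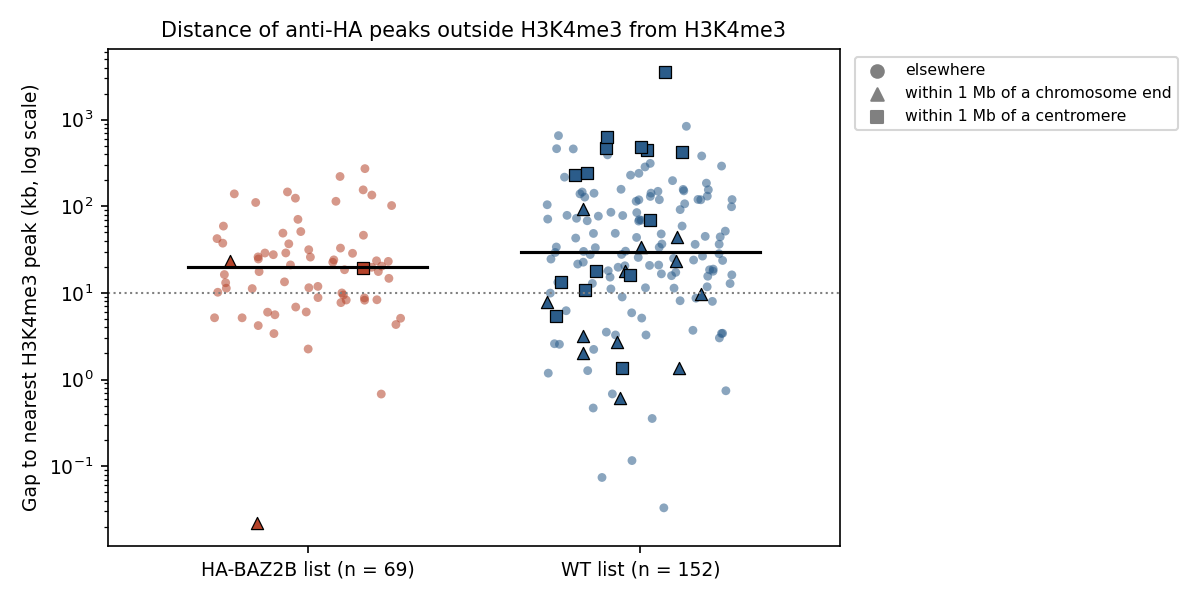
Gap from each anti-HA peak outside H3K4me3 to the nearest H3K4me3 peak in kb (y, log scale), for the HA-BAZ2B list (n = 69) and the WT list (n = 152), spread sideways for legibility. Black lines are medians of 19.8 and 29.7 kb, the dotted line marks 10 kb, and squares and triangles mark peaks within 1 Mb of a centromere or of a chromosome end.

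Few peaks sat within 100 bp of the edge of the criterion. In the HA-BAZ2B list 1 member had a gap under 100 bp and 1 other peak an overlap under 100 bp. In the WT list these were 2 and 0. More peaks overlapped H3K4me3 only in part: with an overlap of at least 50% required, members rose from 69 to 106 (HA-BAZ2B) and from 152 to 169 (WT). Just inside the 1 bp criterion, after the 16q24.3 peak, came HA-BAZ2B peaks 0.68 kb (17q21.2) and 2.25 kb (17q25.3) from H3K4me3. Just outside it, HA-BAZ2B peaks at 7q32.3, 4p16.3 and 2p11.2 overlapped H3K4me3 by 73, 111 and 127 bp, with 5, 4 and 6 tags. In the WT list the nearest were at Xq23 (33 bp, 13 tags), 4p14 (74 bp, 10 tags) and 15q22.2 (116 bp, 32 tags), and the smallest overlaps, at 5q35.3, 11p15.5 and 15q23, were 174, 197 and 197 bp, with 15, 29 and 11 tags. Of the H3K4me3 peaks nearest to these sites, those that themselves had an HA-BAZ2B peak on them were 26 of 67 (38.8%, 27.1 to 51.5%) for the HA-BAZ2B list and 45 of 143 (31.5%, 24.0 to 39.8%) for the WT list, beside 39.6% of all H3K4me3 peaks.

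Centromeres and chromosome ends held a larger share of the WT peaks outside H3K4me3 than of the other WT peaks. Centromeres are built of satellite repeats, and chromosome ends of telomere repeats and duplicated segments next to them. Within 1 Mb of either lay 3 of 69 HA-BAZ2B peaks (4.35%, 0.91 to 12.2%), beside 5.19% of the whole list. In the WT list it was 27 of 152 (17.8%, 12.0 to 24.8%), beside 6.93% of the whole list and 6.19% (5.23 to 7.27%) of WT peaks on H3K4me3. Of these 27, 15 were near a centromere and 12 near an end. None of the 27 overlapped an HA-BAZ2B peak, which is read against the 7.89% of the 152 that did and is too few peaks to stand apart from that share. The 10 WT peaks whose summit lay in a centromeric band were 6.58% of the 152 (3.20 to 11.8%), beside 0.97% of all WT peaks. Of the 69 HA-BAZ2B peaks 0 had a summit there, which allows up to 5.21% (upper limit of the exact 95% interval), and the share of the whole HA-BAZ2B list was 0.50%, so the 69 show no departure from it.

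These WT peaks were deep and had high recovered backgrounds. Near centromeres the median pileup was 63 tags (37 to 83) over a background of 370 tags per 10 kb, and near chromosome ends 39 tags (18 to 105) over 299.5 tags per 10 kb. At the other 125 WT peaks the median was 15 tags (14 to 17) over 59 tags per 10 kb. Of the 218 WT peaks with at least 50 tags, 19 lay outside H3K4me3, and of these 9 were near a centromere and 5 near an end. Positions were not counted over all 218, so these counts are not set against deep WT peaks in general. The recovered background was high in this group of peaks, and its part in the result was not tested.

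The highest pileups were chosen for mention after their values were seen. They were 231 tags (chr18:107854-109364) and 160 tags (chr18:110180-110756) in a pair at 18p11.32, and 120 tags at 17p11.1 (chr17:22252921-22253397). A pair at 1p36.33 had 105 tags (chr1:564717-565331) and 99 tags (chr1:565968-566728), and between them came 104 tags at 10q26.3 (chr10:135500035-135501210) and 100 tags at 4p11 (chr4:49318261-49319165). The widest WT peaks were 3075 bp at 6p11.1 (chr6:58776347-58779421, 63 tags), the first of the 18p11.32 pair at 1511 bp, and 1493 bp at 2p11.1 (chr2:92324354-92325846, 81 tags).

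The last of these belonged to the only group of 3 or more peaks of 1 list within 100 kb. It spanned 56.6 kb at 2p11.1 next to the centromere of chromosome 2. Its other members had 22 tags and a fold of 11.2 (chr2:92269210-92269742) and 41 tags and a fold of 7.78 (chr2:92290502-92291640), while the widest had a fold of 4.85. In the HA-BAZ2B list 4 of 69 peaks lay within 100 kb of another, in pairs at 1p35.1 and 3p24.3. In the WT list 21 of 152 did, in 10 groups. More peaks give more close neighbours, and the same count was not made over all peaks of each list. The 2 counts are therefore not compared.

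Chromosome 20 gave 8 of the 69 HA-BAZ2B peaks outside H3K4me3 (11.6%, 5.14 to 21.6%), against 3.27% of that whole list, and 8 of the 152 in the WT list (5.26%, 2.30 to 10.1%), against 3.11% of all WT peaks. It was the only chromosome of the HA-BAZ2B list whose interval lay above the share of the list, out of 23 looked at, and it was singled out after its value was seen. Chromosome 1 gave 11 of 69 (15.9%, 8.24 to 26.7%), against 9.87% of the list. No HA-BAZ2B peak outside H3K4me3 lay on chromosomes 4, 9, 13, 18, 21 or X. Each of these held between 0.99% (chromosome 21) and 3.96% (chromosome 9) of the whole list. A count of 0 of 69 allows up to 5.21%, so no single one of them departs from the list. The WT list, with 152 such peaks, had them on all 23. In the WT list chromosome 4 gave 8 of 152 (5.26%, 2.30 to 10.1%), narrowly above its 2.27% of the list, and peaks in the centromeric band 4p11 were among the 8. Chromosome 19 gave 3 of 152 (1.97%, 0.41 to 5.66%), below its 8.86% of the list. Both were picked out of 23 after their values were seen. On chromosome 4, 8 of 54 WT peaks were outside H3K4me3 (14.8%), and on chromosome 19, 3 of 211 (1.42%), beside 6.38% of the whole WT list.

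**Figure D5:**
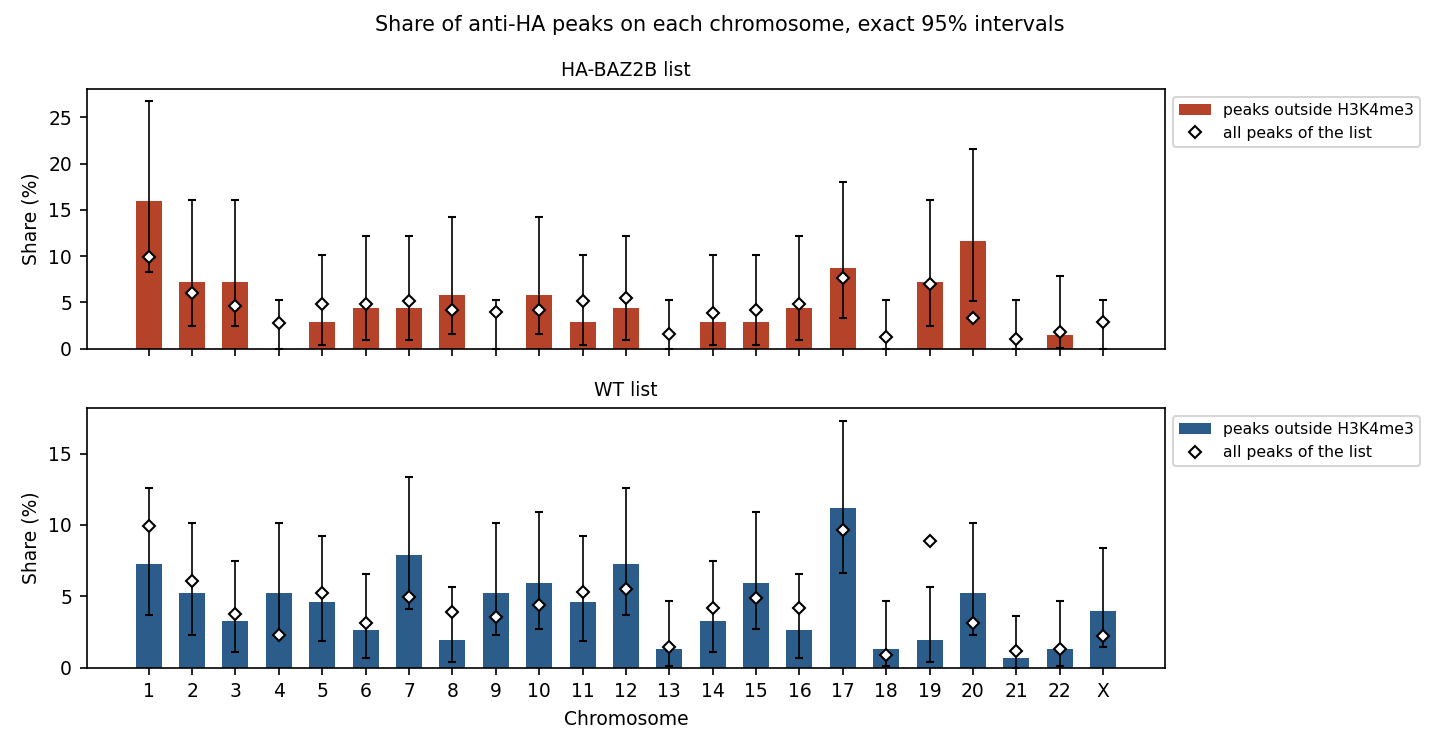
Share of anti-HA peaks on each chromosome (x) in %, for the HA-BAZ2B list (top) and the WT list (bottom). Bars are the 69 and the 152 peaks outside H3K4me3 with exact 95% binomial intervals, and diamonds are all peaks of the list, with chromosome 20 at 11.6% of the HA-BAZ2B bars against 3.27% of the list.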

How the data were processed

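For these CUT&Tag libraries the submitters' processing notes name the aligner Bowtie2 2.4.5, the peak caller MACS2 2.1.4, Picard, SAMtools 1.15.1, bedtools and the builds hg19 and dm6. How MACS2 was set, and whether it had a control library, is not stated in what was used here. A peak was kept, per the labels, if at least 2 replicates had it, with rows from the largest replicate file. Peak names in the deposited lists show that this was replicate 3 for tagged anti-HA, replicate 2 for WT and replicate 1 for H3K4me3. Names in the WT and H3K4me3 lists share an extra label of unknown meaning. H3K4me3 replicates 2 and 3 have an antibody entry with a different final digit, and the titles were followed. The authors deposited a fold enrichment (a ratio over the caller's background), a −log10 p and a −log10 q, a display score and positions in bp for each peak.

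The members and the rules were chosen with earlier results of these data known. Peaks on chromosomes 1 to 22 and X were compared by an overlap of at least 1 bp, in Python 3.11.15 with numpy 2.4.6, pandas 2.3.3, scipy 1.17.1 and matplotlib 3.10.9. Bands of hg19 came from circlize 0.4.16 in R 4.3.3. The summit pileup n and background λ were found, after the lists had been seen, as the whole number n for which (n + 1)/(λ + 1) is the deposited fold and the Poisson tail above n gives the deposited −log10 p within 0.001. The background came out as a whole number of tags per 10 kb (within 0.05) for all peaks tested, those above the lowest value and under 200 tags. The solver was tested on simulated data. Shares have exact Clopper-Pearson 95% intervals, medians exact order-statistic intervals and pileups exact Poisson intervals. These cover counting error only.

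Peaks were named by a rule: the 10 highest folds, the 3 widest, the 3 farthest from and the 3 nearest to H3K4me3 and the lowest −log10 q of each list, every site in both lists, the 3 smallest overlaps among other peaks, and groups of at least 3 peaks within 100 kb. Sequence content and genes at the peaks were not analysed here. Alternatives were a −log10 q of at least 5, an overlap of at least 50% of the anti-HA peak, H3K4me3 peaks widened by 1 kb and, added after seeing the data, a summit pileup of at least 10 tags.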

Additional observations from a re-analysis of the deposited data

Results flagged for a closer look

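Peaks on contigs other than chromosomes 1 to 22 and X were kept out of the report and gave a signal of their own. In the HA-BAZ2B list 4 of 239 such peaks lay outside H3K4me3 (1.67%, exact 95% interval 0.46 to 4.23%), with a median summit pileup of 5.5 tags (range 5 to 27). In the WT list 23 of 70 did (32.9%, interval 22.1 to 45.1%), with a median of 85 tags (range 10 to 337). The 2 lists come from libraries of different depth, and the difference was not tested.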

How the results depend on the processing

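A share or median was taken as moved when it left its 95% interval, and a number of peaks when it changed by over 1.5 times. By this 17 of 56 recomputed values moved, and widening the H3K4me3 peaks by 1 kb moved none of 14. The number of WT peaks, 152, became 113 with a −log10 q of at least 5, 169 with a 50% overlap, 144 with the widened peaks and 141 with at least 10 tags. With a −log10 q of at least 5, the HA-BAZ2B peaks outside H3K4me3 numbered 24 (0.372% of the list) with a median fold of 5.59, and the WT peaks made up 5.40% of their list with a median fold of 6.19. With an overlap of at least 50% required, the HA-BAZ2B peaks numbered 106 (1.56%) with a median width of 366 bp, and the shares over 10 kb from H3K4me3 were 45.3% for the HA-BAZ2B list and 68.6% for the WT list. With a summit pileup of at least 10 tags, an alternative added after seeing the data, 3 HA-BAZ2B peaks were left (0.0481%), of which 33.3% overlapped a WT peak, 33.3% lay near a chromosome end or centromere and 0% lay over 10 kb from H3K4me3, with a median fold of 4.44 and a median width of 363 bp. None of the WT values moved under it. No paired analysis was possible because each group has 1 list and no value per replicate, and leaving out each replicate could not be run for the same reason. The search for sequence patterns and genes at the peaks was not run, since no genome of the build of the lists was used here. Pileups of 3 to 9 tags limit what can be said of single HA-BAZ2B peaks.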

Other observations

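Of the HA-BAZ2B and WT peaks outside H3K4me3 that did not overlap, 2 pairs lay close to each other. At 17q23.1 the gap was 13.7 kb, with 8 tags and a fold of 6.13 in the HA-BAZ2B list and 63 tags and a fold of 3.06 in the WT list (chr17:57920435-57921807). At 20q13.13 the gap was 24.7 kb, with 5 tags in the HA-BAZ2B list (chr20:49057068-49057459) and 14 tags in the WT list (chr20:49031966-49032321).

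Giemsa-dark bands (the gpos75 and gpos100 stains), which are gene-poor, held 10 of 69 HA-BAZ2B peaks outside H3K4me3 (14.5%, interval 7.17 to 25%), against 11.6% of those on H3K4me3. They held 30 of 152 WT peaks outside H3K4me3 (19.7%, interval 13.7 to 27.0%), against 11.6% of WT peaks on H3K4me3 (10.3 to 13.0%).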
